A study of Homo sapiens with 12 samples.

Results

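CD44, EPCAM, PROM1 (CD133), ALCAM (CD166) and CD24, surface proteins used to sort stem-like cells from colorectal tumours, were followed across every library of the series. The 5 genes were chosen by symbol, matched to Ensembl identifiers, and are 5 of the 63677 identifiers in the deposited table. The cells were HCT116, a long-established line from a human colorectal carcinoma. PolyA RNA was sequenced from 12 libraries, 3 for each of 4 genotypes: CR3, which carries a peptide described by the submitters as perturbing condensates, scramble and reverse, named as variants of CR3 with no sequence in the labels, and mCherry, the fluorescent protein labelled as the control. All 4 groups received doxycycline to switch on the construct, at a labelled concentration of 1 ug/ul and for a time labelled 48 without a unit, and were grown in DMEM with 10% FCS. Untreated cells were not analysed here. The submitters describe the lines as clones and do not say how many clones stand behind a genotype, so a difference between genotypes and a difference between clones cannot be told apart. Nothing in the labels says whether the 3 libraries of a group came from separate cultures, and p-values measure only the spread between these libraries.

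CD44 is a receptor for the matrix polysaccharide hyaluronan, and its splice variants are known from intestinal crypt bases and from tumour-initiating cells. EPCAM is an epithelial adhesion protein that can be cleaved to release a signalling fragment, PROM1 is a cholesterol-binding protein of membrane protrusions, ALCAM is an immunoglobulin-family adhesion molecule that binds itself and CD6, and CD24 is a small, heavily glycosylated protein held by a lipid anchor. CD44 is also a long-known target of Wnt signalling in intestinal tumours.

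Levels are given as normalized reads, the reads of a gene divided by the size factor of the library. Total gene reads ranged from 17430134 to 23565976 over the libraries. Of the 5 markers, 4 passed the filter of at least 10 reads in at least 3 libraries and were tested among 15177 genes with limma on log2(normalized reads + 1), and CD24 had no reads. All 4 tested markers were lower in CR3 than in each of the other 3 groups, with CD44 falling most, and none was called between scramble, reverse and mCherry.

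Coordinates are from GENCODE 29 on GRCh38. CD44 (ENSG00000026508) lies on the plus strand at chr11:35138870-35232402 and has 39 annotated transcripts. EPCAM (ENSG00000119888) lies on the plus strand at chr2:47345158-47387601, PROM1 (ENSG00000007062) on the minus strand at chr4:15963076-16084378, ALCAM (ENSG00000170017) on the plus strand at chr3:105366909-105576900, and CD24 (ENSG00000272398) on the minus strand at chr6:106969831-106975627. The table holds 1 value per gene, so standard and variant forms of CD44 are summed in it. Of the genes that overlap these loci in the annotation, the 5 that the table lists, among them CD44-AS1 and MIR559, had at most 6 reads in any library, against at least 476 reads for each of the 4 tested markers.

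Because the tested markers moved together, their promoters are shown, from 250 bases before to 50 bases after the RefSeq start on GRCh38.p14, with matches to searched motifs in capitals. RefSeq promoters were matched for 4 of the 5 genes, CD44, PROM1, ALCAM and CD24.
CD44, chr11:35138921-35139220, plus strand: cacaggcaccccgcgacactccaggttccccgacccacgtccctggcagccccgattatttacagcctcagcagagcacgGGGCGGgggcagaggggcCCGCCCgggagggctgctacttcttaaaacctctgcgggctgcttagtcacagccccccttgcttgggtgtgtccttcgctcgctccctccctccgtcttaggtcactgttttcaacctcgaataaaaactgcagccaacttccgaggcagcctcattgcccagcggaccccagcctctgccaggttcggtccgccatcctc
PROM1, chr4:16083974-16084273, minus strand: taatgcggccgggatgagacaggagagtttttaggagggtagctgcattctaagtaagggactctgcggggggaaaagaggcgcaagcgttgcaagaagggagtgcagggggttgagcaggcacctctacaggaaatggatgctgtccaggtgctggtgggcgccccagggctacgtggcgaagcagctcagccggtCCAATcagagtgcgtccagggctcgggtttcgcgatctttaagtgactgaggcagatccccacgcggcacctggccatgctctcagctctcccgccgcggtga
ALCAM, chr3:105366659-105366958, plus strand: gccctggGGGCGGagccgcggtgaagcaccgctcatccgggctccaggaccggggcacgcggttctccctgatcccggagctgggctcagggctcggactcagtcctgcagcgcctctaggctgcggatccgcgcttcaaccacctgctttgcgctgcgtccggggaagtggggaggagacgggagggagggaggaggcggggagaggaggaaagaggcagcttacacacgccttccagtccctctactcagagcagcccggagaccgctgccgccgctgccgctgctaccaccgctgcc
The capitals in CD44 and ALCAM mark the GC box GGGCGG, read on either strand, with 2 matches in CD44 and 1 in ALCAM. The capitals in PROM1 mark 1 CCAAT box, and no match overlapped another. Of 35116 RefSeq promoters of the same length, 45.0% held a GC box and 34.6% a CCAAT box. The TCF/LEF core CTTTGA, present in 12.9% of promoters, the TATA box TATAAA, present in 11.5%, the E-box CACGTG, present in 7.26%, and the AP-1 motif TGANTCA, present in 7.71%, were each searched on both strands and had no match in these windows. The 3 windows were 63.3%, 60.7% and 70.0% G and C for CD44, PROM1 and ALCAM, against a median of 58.7% over all promoters. No single searched motif was shared by the 3 sequences. EPCAM had no matched promoter, and 1 window per gene leaves other transcript starts unsearched, so shared control of the markers was not tested.

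CD44 had 3686, 3417 and 3421 normalized reads in the CR3 libraries, 5282, 5617 and 5521 in scramble, 5905, 5597 and 5899 in reverse, and 5714, 5786 and 5921 in mCherry. Every CR3 library lay far below every library of the other groups. The means were 3508 ± 154 in CR3, 5473 ± 173 in scramble, 5800 ± 176 in reverse and 5807 ± 105 in mCherry (SD, n = 3 libraries each). Against mCherry, CD44 fell by 0.73 on the log2 scale (SE 0.044, 95% interval -0.82 to -0.63, limma adjusted p = 2.6e-09). Against scramble it fell by 0.64 (SE 0.044, adjusted p = 7.7e-09) and against reverse by 0.73 (SE 0.044, adjusted p = 2.5e-09). In mean normalized reads, CD44 fell by 39.6% relative to mCherry. It fell by 35.9% relative to scramble and fell by 39.5% relative to reverse. In bulk RNA, fewer cells expressing a gene and less of its RNA per cell cannot be told apart. Only 1.29% of tested genes had a more negative log2 fold change against mCherry, 1.98% against scramble and 1.27% against reverse. Of 1736 genes called lower in CR3 against each other group, 74 had fold changes that were all more negative than -0.64, the smallest change of CD44.

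In CR3 against mCherry, 28.8% of tested genes were called at an adjusted p under 0.05, 14.1% as higher and 14.7% as lower, and 4 markers of 4 tested were among the lower ones. Against scramble 38.3% were called, 19.2% as higher and 19.1% as lower, and against reverse 34.2% were called, 17.1% in each direction, with the same 4 markers among them. A call against all 3 groups with 1 sign was made for 22.4% of tested genes, in the lower direction for 11.4%, and for all 4 tested markers in the lower direction. The share of all tested genes whose CR3 libraries lay below every other library was not counted.

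**Figure D1:**
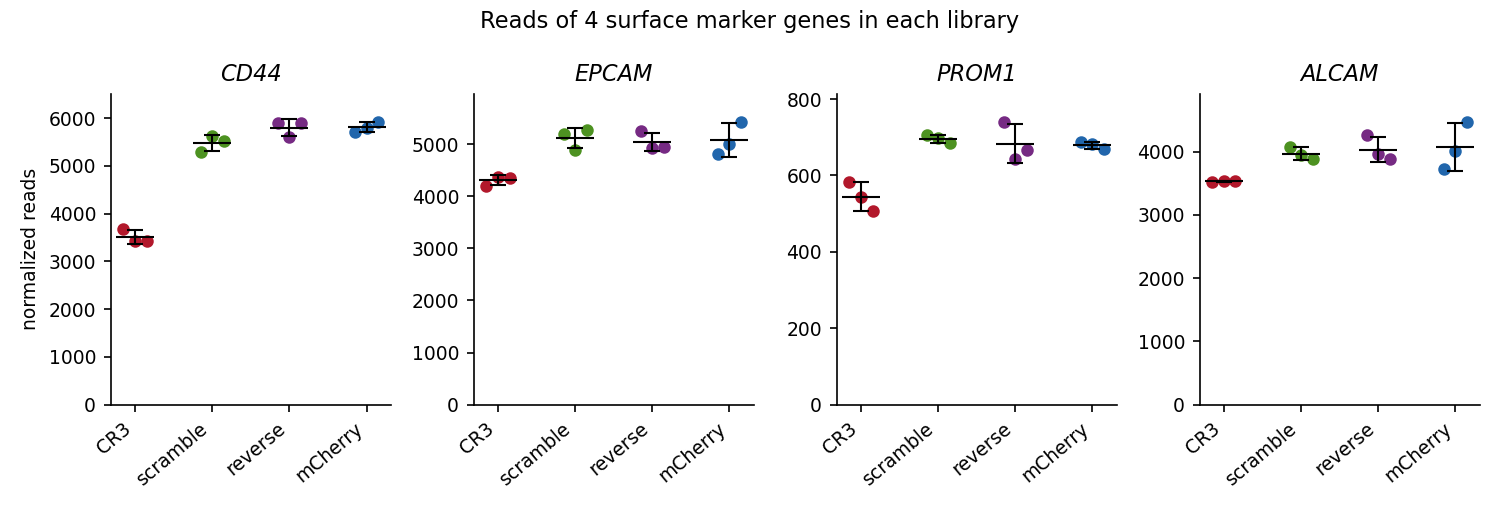
Normalized reads (vertical axis, from 0) of CD44, EPCAM, PROM1 and ALCAM in the 12 libraries, by group. Points are libraries, and the black marks are the mean and SD of 3 libraries. The 3 CR3 libraries lie below the libraries of all other groups for each gene, by the widest margin for CD44 (3417 to 3686 in CR3, at least 5282 elsewhere).

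PROM1, a marker of apical membrane protrusions, had 582, 543.9 and 505.9 normalized reads in CR3, 704.9, 698.3 and 683.8 in scramble, 740.5, 642.1 and 665.6 in reverse, and 687.3, 681.3 and 668.9 in mCherry. The highest CR3 library was below the lowest library of any other group, which was in reverse. PROM1 fell by 0.32 against mCherry (SE 0.069, adjusted p = 0.0019), by 0.36 against scramble (adjusted p = 0.00059) and by 0.33 against reverse (adjusted p = 0.0014), on the log2 scale and by limma.

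EPCAM, the adhesion protein that marks epithelial cells, had 4206, 4377 and 4351 normalized reads in CR3, 5187, 4892 and 5271 in scramble, 5251, 4933 and 4946 in reverse, and 4805, 5006 and 5430 in mCherry. No CR3 library reached the lowest of the others, mCherry replicate 1. EPCAM fell by 0.24 against mCherry (SE 0.050, adjusted p = 0.0017), by 0.25 against scramble (adjusted p = 0.00081) and by 0.23 against reverse (adjusted p = 0.0019), on the log2 scale and by limma. Relative to mCherry this was 15.1% fewer reads by the group means, 4311 ± 92.4 in CR3 and 5081 ± 319 in mCherry.

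ALCAM had 3522, 3534 and 3539 normalized reads in CR3, 4079, 3950 and 3883 in scramble, 4256, 3957 and 3884 in reverse, and 3729, 4010 and 4472 in mCherry. The 3 CR3 libraries were nearly equal and below all others, while mCherry was the widest group, with replicate 3 high for both ALCAM and EPCAM. ALCAM fell by 0.20 against mCherry (SE 0.056, limma adjusted p = 0.013), by 0.17 against scramble (adjusted p = 0.026) and by 0.19 against reverse (adjusted p = 0.015), on the log2 scale. This call is the least firm of the 4. Scaling by library size alone ended it in all 3 comparisons (fold changes of -0.11 against mCherry, -0.08 against scramble and -0.10 against reverse, adjusted p = 0.147, 0.294 and 0.168), and leaving out mCherry replicate 3 ended it against mCherry (-0.13, limma adjusted p = 0.051), as did leaving out reverse replicate 1 against reverse (-0.15, adjusted p = 0.081). Against scramble it was lost without any of the 3 CR3 libraries and without scramble replicate 1 or 2, with fold changes of -0.18 to -0.15 over all left-out libraries.

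Library-size scaling moved the median of all tested genes by close to 0.1 on the log2 scale in the CR3 comparisons, to 0.09, 0.10 and 0.09 against mCherry, scramble and reverse, where the deposited size factors gave 0.00, 0.01 and 0.01. The share of calls that were higher in CR3 was then 73.7%, 71.3% and 72.2%, in place of 48.8%, 50.2% and 49.95%. CD44, PROM1 and EPCAM stayed lower in CR3 and past the threshold under that scaling, but the fold changes of EPCAM shrank to -0.15 against mCherry, -0.15 against scramble and -0.14 against reverse (limma adjusted p = 0.031, 0.018 and 0.035).

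**Figure D2:**
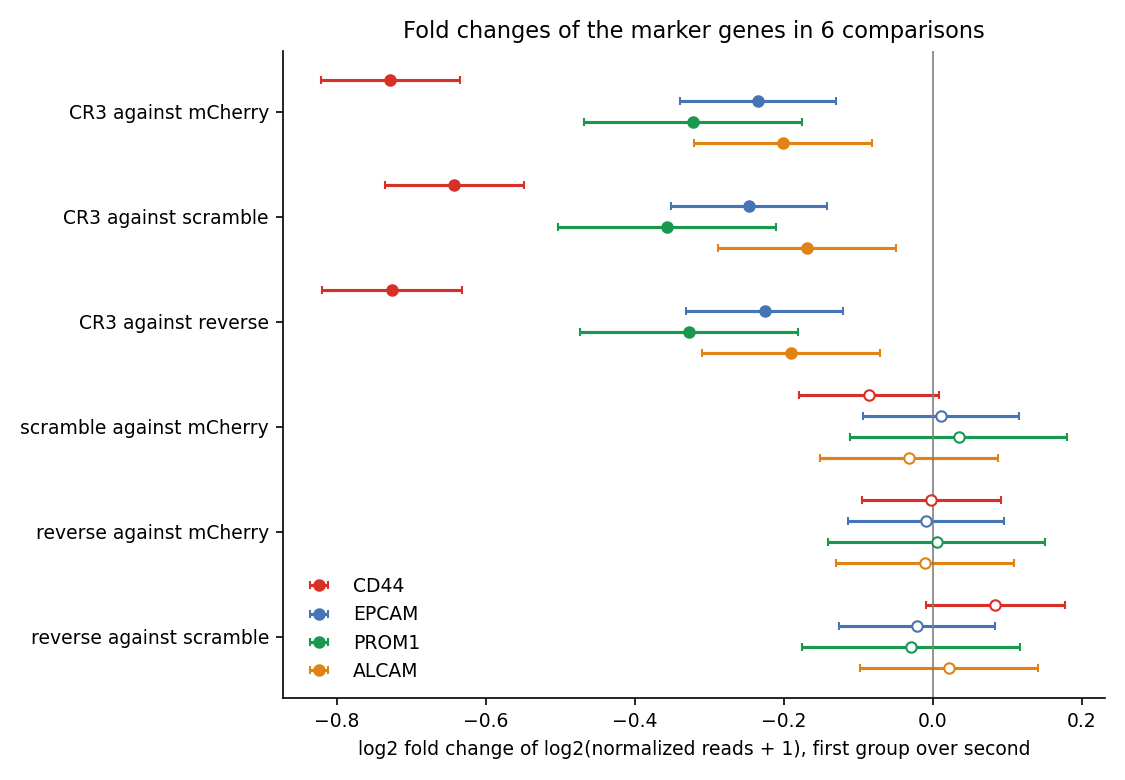
Log2 fold changes (horizontal axis, first group over second) of the 4 tested markers in the 6 comparisons between groups. Points are limma estimates, bars their 95% intervals, filled points have an adjusted p under 0.05. All 12 values with CR3 are below 0, with CD44 at -0.73, -0.64 and -0.73, and the intervals of the 12 values without CR3 all cross 0.

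The 3 groups without CR3 gave no call for any marker. In scramble against mCherry 1.53% of tested genes were called (0.758% higher, 0.771% lower), in reverse against mCherry 0.639% (0.25% higher, 0.389% lower) and in reverse against scramble 0.441% (0.27% higher, 0.171% lower). The largest of these 12 differences was CD44 in scramble against mCherry, -0.09 (SE 0.044, 95% interval -0.18 to 0.01, limma adjusted p = 0.38). Its 3 scramble libraries were all below the 3 mCherry libraries, the only one of these 12 cases without overlap. The share of all tested genes without overlap in that comparison was not counted, so this separation is a description. In reverse against scramble CD44 differed by 0.08 (95% interval -0.01 to 0.18, adjusted p = 0.71), and in reverse against mCherry by -0.00 (-0.10 to 0.09). EPCAM, PROM1 and ALCAM differed by at most 0.03 in either direction across these comparisons, with intervals reaching 0.18.

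Per kilobase of annotated exon, EPCAM was the most abundant marker in every group, with 1712 ± 36.7 normalized reads per kilobase in CR3, 2031 ± 79.0 in scramble, 2002 ± 71.6 in reverse and 2017 ± 127 in mCherry. PROM1 was the least abundant, at 73.2 ± 5.12 in CR3, 93.6 ± 1.46 in scramble, 91.8 ± 6.91 in reverse and 91.4 ± 1.26 in mCherry. CD44 and ALCAM lay between them. In CR3 they stood at 350.7 ± 15.4 for CD44 and 492.0 ± 1.25 for ALCAM, with CD44 below ALCAM in every library. In the other groups they were neighbours whose ranges overlapped, 547.1 ± 17.2 for CD44 and 553.1 ± 13.8 for ALCAM in scramble, 579.8 ± 17.6 and 561.7 ± 27.4 in reverse, and 580.5 ± 10.5 and 567.0 ± 52.3 in mCherry. These lengths count every annotated exon, so a gene that uses few of its exons is understated.

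**Figure D3:**
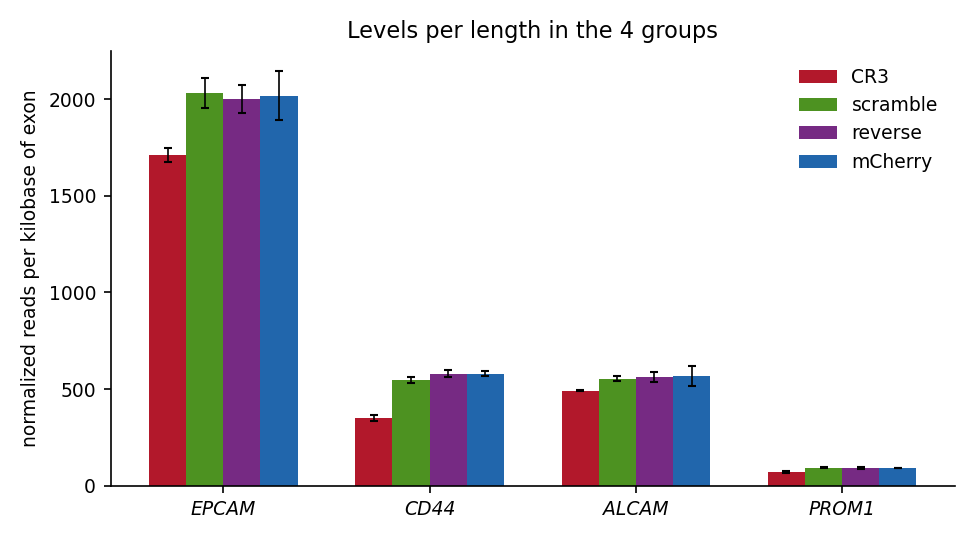
Normalized reads per kilobase of annotated exon (vertical axis, from 0) for 4 markers in CR3, scramble, reverse and mCherry. Bars are means and error bars SDs of 3 libraries. EPCAM is highest and PROM1 lowest throughout, and CD44 and ALCAM are about level except in CR3, at 350.7 and 492.0.

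The ratio of CD44 to the other markers within a library differed between CR3 and the rest. CD44 had 0.814 times the reads of EPCAM on average in CR3, and 1.07, 1.15 and 1.15 times in scramble, reverse and mCherry. On the log2 scale this difference was between -0.36 and -0.19 in the CR3 libraries and its lowest value in any other library was 0.03. CD44 had 0.993 times the reads of ALCAM in CR3, and 1.38, 1.44 and 1.43 times in scramble, reverse and mCherry. CD44 exceeded PROM1 by 6.45 times in CR3, and by 7.86, 8.51 and 8.54 times in scramble, reverse and mCherry. EPCAM and ALCAM kept nearly the same ratio in all groups, 1.22 in CR3 and 1.29, 1.25 and 1.25 in scramble, reverse and mCherry. Across the 9 libraries without CR3, log2 levels of EPCAM and ALCAM had a Pearson correlation of 0.80, whereas the other 5 pairs had between -0.04 and 0.32. These points share library depth and size factors, and the values are descriptions.

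CD24 was listed at 0 in all 12 libraries, which allows up to 3 reads per library by counting error alone. The annotated CD24 gene has similar copies elsewhere in the genome, and the closest, the processed pseudogene CD24P4 (ENSG00000185275, chrY:18992467-18992709, minus strand), had reads in all 12 libraries. The coding sequence of CD24 and the pseudogene are shown because they bear on what a value of 0 can mean. Both are from GENCODE 29 and GRCh38, and capitals mark the bases that differ.
CD24: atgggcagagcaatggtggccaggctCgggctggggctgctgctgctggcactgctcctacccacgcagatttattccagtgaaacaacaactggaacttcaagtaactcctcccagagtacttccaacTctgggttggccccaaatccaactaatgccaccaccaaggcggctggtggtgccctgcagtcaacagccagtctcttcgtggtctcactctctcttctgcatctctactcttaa
CD24P4: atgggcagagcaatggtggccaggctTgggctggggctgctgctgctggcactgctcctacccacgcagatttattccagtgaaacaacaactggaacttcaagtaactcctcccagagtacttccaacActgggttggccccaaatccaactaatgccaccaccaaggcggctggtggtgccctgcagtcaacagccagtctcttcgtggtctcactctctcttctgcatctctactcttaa
The sequences were identical at 241 of 243 bases, 99.2%. Only these coding bases are compared, while the annotated exons of CD24 cover 3097 bases in GENCODE 29. The counting of reads that fit both places is not given in the sources used here. Nor is the annotation release used for counting, and 6209 GENCODE 29 genes are numbered above the highest identifier listed. Neither was tested as a reason for the 0. The 0 of CD24 is therefore not shown to be an absence of its RNA. CD24P4 had between 31 and 66 reads per library. In normalized reads it had 44.8, 55.3 and 44.6 in CR3, 53.7, 32.7 and 42.1 in scramble, 42.7, 31.7 and 52.2 in reverse, and 67.9, 55.5 and 43.7 in mCherry. The groups overlapped, and no comparison was called. CR3 against mCherry gave a log2 fold change of -0.19 with a 95% interval of -0.68 to 0.30 (limma adjusted p = 0.59), and CR3 against scramble and reverse gave 0.19 and 0.21 (adjusted p = 0.56 and 0.52). The copies CD24P1 and CD24P2, at 80.2% and 89.0% identity, had at most 1 read in any library.

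Genes that act with the markers were followed in lists by role. Counts are of genes called against all 3 other groups with 1 sign, which 11.4% of tested genes were as lower and 11% as higher in CR3. A gene that reached 10 reads in the CR3 libraries alone was tested only through them, so its call as higher followed from the filter. Medians are of the log2 fold change in CR3 against mCherry, where the median of all tested genes was 0.00. With library-size scaling, which raised that median to 0.09, the shares of all tested genes were 6.12% as lower and 17.9% as higher in CR3, and the genes called higher in CR3 numbered 7 of 17 for the CD44 tail, 4 of 10 for PROM1, 5 of 9 for ALCAM and 5 of 29 for the other stem cell markers.

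Among 11 tested genes of the hyaluronan system, 3 fell in CR3 and none rose, with a median of -0.05 that turned to 0.03 with library-size scaling. HAS3, a hyaluronan synthase, had 2084 ± 90.3 normalized reads in CR3, 3218 ± 60.0 in scramble, 2976 ± 74.2 in reverse and 2713 ± 201 in mCherry (log2 fold change against mCherry -0.38, limma adjusted p = 3.5e-05). HMMR, a hyaluronan-binding protein of the mitotic spindle, fell to 886.3 ± 55.1 in CR3, against 1260 ± 100 in mCherry (-0.51, adjusted p = 1.4e-05). CEMIP, which promotes hyaluronan breakdown, fell to 211.2 ± 30.3 in CR3, against 340.7 ± 1.74 in mCherry (-0.70, adjusted p = 0.00017). The hyaluronidases HYAL1, HYAL2 and HYAL3 were not called in any CR3 comparison, and HAS1 had no reads.

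Of 17 tested genes that bind the CD44 tail or cleave CD44, 2 fell and 3 rose, with a median of 0.07. Ezrin (EZR), which links CD44 to actin, averaged 18946 ± 478 in CR3 and 22119 ± 211 in mCherry (log2 fold change -0.22, limma adjusted p = 0.00079), and radixin (RDX) 4040 ± 120 in CR3 and 5190 ± 406 in mCherry (-0.36, adjusted p = 5.0e-05). Ankyrin 3 (ANK3) rose by 0.73 to 485.9 ± 4.20 in CR3, against 291.7 ± 9.76 in mCherry (adjusted p = 2.1e-05). The metalloprotease inhibitor TIMP1 rose by 0.25 against mCherry (adjusted p = 0.0047). The sheddase ADAM17 had values of -0.18 against mCherry (adjusted p = 0.0094) and -0.08 and -0.06 against scramble and reverse (adjusted p = 0.25 and 0.35), and ADAM10 was not called in any of the 3 comparisons.

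Of the splicing factors with reported roles at CD44 variant exons, 14 of 17 tested genes fell in CR3 and 1 rose, with a median of -0.24. Under library-size scaling the count was 8 of 17 and the median -0.15. ESRP1, an epithelial splicing regulator that favours CD44 variant exons, had 2889 ± 148 in CR3 and 3623 ± 184 in mCherry (log2 fold change -0.33, limma adjusted p = 8.0e-05). HNRNPA1, an abundant RNA-binding repressor of exons, had 12512 ± 472 in CR3 and 16660 ± 553 in mCherry (-0.41, adjusted p = 9.7e-07). KHDRBS1 (SAM68) and YBX1 were lower by 0.27 and 0.33 in the same comparison. RBFOX2, a splicing factor tied to mesenchymal exon choice, was the 1 gene that rose, named after its value was seen. The gene-level table does not show which CD44 exons were used.

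Around EPCAM, 4 of 15 tested genes fell and 1 rose, with a median of -0.10, and under library-size scaling 2 fell and 2 rose. CD9, a tetraspanin that associates with EPCAM, averaged 2890 ± 138 in CR3 and 3914 ± 44.0 in mCherry (log2 fold change -0.44, limma adjusted p = 6.9e-07). The tight junction protein CLDN4 averaged 2362 ± 265 in CR3 and 3312 ± 494 in mCherry (-0.48, adjusted p = 0.00096), and the membrane protease ST14 was lower by 0.26 (adjusted p = 0.011), a call that library-size scaling ended. The tetraspanin CD82 rose by 0.31 against mCherry (adjusted p = 0.0038).

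For the relatives and partners of PROM1, none of 10 tested genes was called lower against all 3 groups (1 with upper-quartile scaling) and 2 rose, with a median of 0.15. CDHR1, a cadherin that is known to interact with PROM1 in photoreceptors, had 122.4 ± 11.1 normalized reads in CR3 and no reads in the 9 other libraries. With a floor of 3 reads per library it was at least 41.5-fold higher in CR3 than in mCherry. PI4KA, a lipid kinase, rose by 0.25 against mCherry (limma adjusted p = 0.00023). For ALCAM none of 9 tested genes fell and 3 rose, with a median of 0.10. The adhesion molecule CADM1 averaged 241.7 ± 49.8 in CR3, 0.924 ± 0.042 in scramble, 3.06 ± 2.15 in reverse and 1.33 ± 0.665 in mCherry. CDHR1 and CADM1 passed the filter through the CR3 libraries alone, so their calls as higher followed from it. NCAM1, a neural cell adhesion molecule, and BCAM, a laminin receptor, rose by 0.79 and 0.31 against mCherry (adjusted p = 0.00051 and 0.0032). CD6, the lymphocyte ligand of ALCAM, did not pass the filter. Of 13 tested genes tied to CD24 or to lipid anchors, 2 rose and 1 fell, with a median of 0.02. PGAP1, which trims lipid anchors, rose by 0.59 and the kinase FYN by 0.29 against mCherry, while the kinase LYN was lower by 0.16 (adjusted p = 2.5e-05, 0.0079 and 0.025), and library-size scaling ended the call of LYN.

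**Figure D4:**
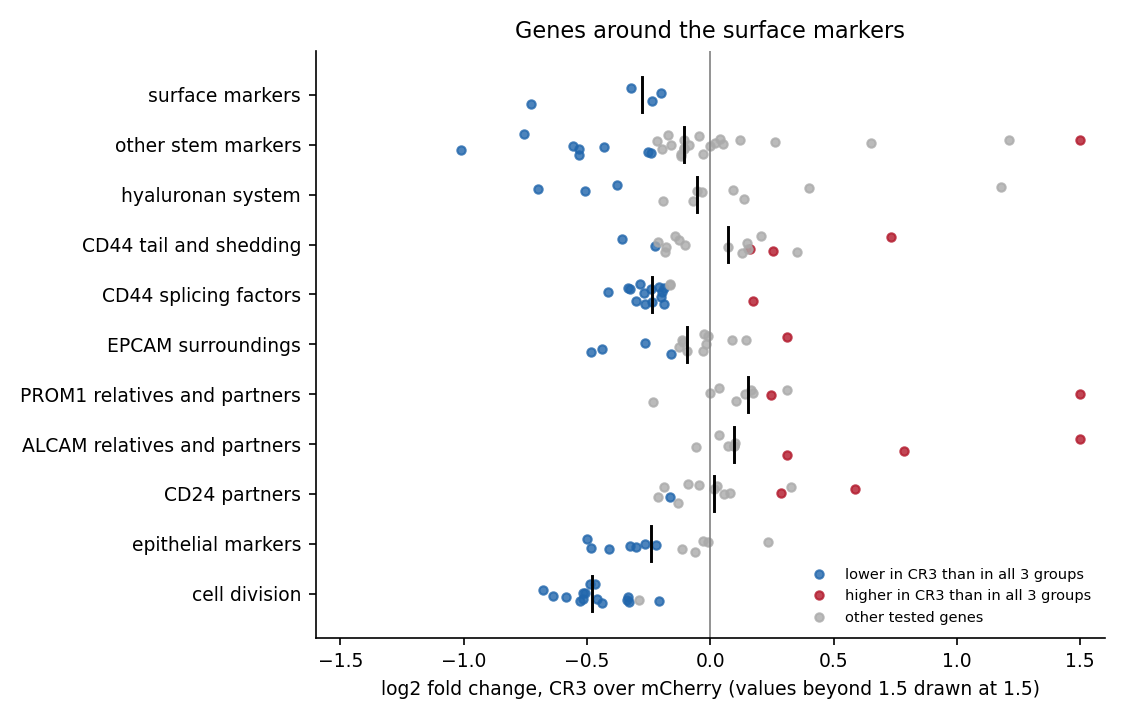
Log2 fold changes in CR3 over mCherry (horizontal axis) of the tested genes in each list (rows, with the surface markers on top). Each point is a gene, red where CR3 was called higher and blue where it was called lower against each other group. Black bars are medians, and values beyond 1.5 are drawn at 1.5. Blue points fill the rows of splicing factors (14 of 17) and cell division genes (15 of 16). The ALCAM row has 3 red points and no blue one. Among these red points, CADM1 passed the filter only through the CR3 libraries.

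Among 29 other tested stem cell markers, 8 fell and 1 rose, with a median of -0.11. ITGA6, the laminin-binding integrin used beside CD44 in sorting, averaged 1316 ± 43.8 in CR3 and 1934 ± 34.6 in mCherry (log2 fold change -0.55, limma adjusted p = 9.7e-08). SOX9, a crypt transcription factor, averaged 340.2 ± 45.8 in CR3, 457.4 ± 20.5 in scramble, 516.2 ± 64.7 in reverse and 683.0 ± 35.9 in mCherry (-1.01 against mCherry, adjusted p = 6.9e-07). The Wnt feedback gene AXIN2 fell by 0.76 and the aldehyde dehydrogenase ALDH1B1 by 0.43 against mCherry (adjusted p = 2.3e-05 and 5.5e-06). The crypt stem cell genes LGR5, ASCL2, OLFM4 and SMOC2, named after their values were seen, did not pass the filter. Of the colon differentiation list only 6 of 24 genes were tested, with a median of -0.30 against mCherry and -0.07 against reverse. SLC26A3 passed the filter through the mCherry libraries alone and CA1 through the scramble libraries alone. SLC26A3 thus counted as a fall against mCherry and as no change against reverse, so these medians lean on the filter. Of the 6 genes 1 fell, KLF5, a crypt transcription factor, by 0.53 against mCherry (limma adjusted p = 7.7e-07). CA2 and CDX2 had values of -0.08 and 0.11 against mCherry (adjusted p = 0.31 and 0.48).

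Markers of other cell types and of growth also differed between CR3 and the rest. The epithelial keratin KRT8 was abundant in all groups (23381 ± 1830 in CR3, 27718 ± 663 in scramble, 26995 ± 1415 in reverse and 28052 ± 2149 in mCherry), while VIL1 and CDH17, intestinal epithelial markers, did not pass the filter. Of 12 tested epithelial genes 7 were lower in CR3, a count of 3 with library-size scaling, and the summed level of the 15 genes was 55589 to 64139 in CR3, 69417 to 72505 in scramble, 66813 to 71720 in reverse and 66692 to 75382 in mCherry. Genes known from embryonic kidney lines were higher in CR3 for 14 of 16 tested, with a summed level of 4190 to 4570 in CR3, 777 to 815 in scramble, 778 to 832 in reverse and 875 to 901 in mCherry. That count leans on the filter. LUZP4, PNMA8A and GSTM3 averaged 393.1, 194.4 and 160.5 in CR3 and at most 0.348 in any other group. They passed through the CR3 libraries alone, so their calls as higher followed from the filter. The tested genes of this list had a median of 5.71 against mCherry, and how many others passed in that way was not counted. Fibroblast and mesenchymal genes were higher for 5 of 8 tested and summed to 3289 to 3638 in CR3, 1570 to 1649 in scramble, 1572 to 1753 in reverse and 1622 to 1963 in mCherry, and VIM, which the embryonic kidney list holds too, had the smallest adjusted p, whereas COL1A2 and DCN did not pass the filter. Of the blood list 2 of 16 genes were tested, and PTPRC had no reads. LAPTM5 alone was called, at 1326 ± 62.9 in CR3 and at most 1.54 on average in any other group. Of the 5 mesenchymal genes called, CDH2 averaged 129.8 in CR3 and at most 2.27 in any other group. LAPTM5 and CDH2 also passed through the CR3 libraries alone, so these calls as higher followed from the filter. Cell division genes were lower for 15 of 16 tested, with a summed level of 32037 to 37947 in CR3, 54116 to 54868 in scramble, 50210 to 54419 in reverse and 45399 to 51866 in mCherry. The part of these differences in the marker values was not tested.

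Genes next to the markers moved in different directions. Next to CD44, PDHX had a value of 0.05 against mCherry (limma adjusted p = 0.59), and SLC1A2, 18.8 kilobases beyond CD44, averaged 15.6 in CR3, 6.56 in scramble, 48.0 in reverse and 13.2 in mCherry. Beside PROM1, FGFBP1 was lower by 0.85 and TAPT1 higher by 0.41 against mCherry (adjusted p = 0.00036 and 0.0012). CBLB, beside ALCAM, had a value of 0.13 (adjusted p = 0.40).

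The genes whose levels ran most like each marker over the 12 libraries were taken from 10980 candidates with a mean of at least 100 normalized reads. Candidates with r above 0.9 numbered 469 for CD44, 398 for EPCAM, 227 for PROM1 and 76 for ALCAM, so the named genes are the top of long lists. For CD44 they were RPL12, IRS1 and NR2F1 (Pearson r of 0.990, 0.989 and 0.987), and within the 9 libraries without CR3 the same genes had r of 0.53, 0.67 and 0.80. For EPCAM they were YWHAQ, SLC35F2 and YWHAZ (0.98 each), with 0.93, 0.90 and 0.90 without CR3. PROM1 ran closest to IARS2, VDAC3 and POP5 (0.971, 0.966 and 0.964), with 0.69, 0.79 and 0.50 without CR3, and ALCAM to CAB39, CETN3 and PKIB (0.965, 0.962 and 0.961), with 0.96, 0.91 and 0.93. The CR3 libraries lie apart for all 4 markers and weigh on the values over 12 libraries, and all libraries share size factors.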

How the data were processed

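PolyA RNA from 12 HCT116 libraries was sequenced, with groups taken from the sample titles. The kit was a stranded TruSeq kit, per the labels' protocols. The submitters' processing notes name STAR, Salmon, featureCounts, DESeq2 and edgeR, besides Trim Galore, GATK, FastQC and MultiQC, and the build GRCh38. No version, strand setting or annotation release is given there. The deposited values are read counts that, from the values, the authors divided by 1 factor per library (normalized reads). Most had lost their decimal mark.

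Each of 265152 non-zero values was a whole multiple of the library's 1-read value once shifted by a power of 10 (tolerance 1e-07). Powers were chosen by likelihood with the group labels, so libraries of a group can be drawn closer together. In 2253 values (0.85%) a second power had a likelihood ratio under 20, and 976 genes that passed the filter were left out for it. For the markers with reads the ratio was at least 1463. Whole reads restored in this way were used for the filter, but no count model was run on them. Instead, limma 3.58.1 in R 4.3.3 (two-sided, mean-variance trend, 1 model over 4 groups, Benjamini-Hochberg over 15177 genes) was run on log2(normalized reads + 1), which understates changes of low genes. The fit was checked on simulated data. Restoring and figures used matplotlib 3.10.9, pandas 2.3.3, scipy 1.17.1 and numpy 2.4.6 under Python 3.11.15.

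The markers and 14 gene lists were chosen with earlier results of these data known. Up to 4 called genes per list, with a mean of at least 20 normalized reads, are named by adjusted p against mCherry, or the most abundant where fewer than 2 qualify. Other named genes were picked after their values were seen. Symbols came from GENCODE 29 and a table of gene names, which matched 52526 identifiers. Alternatives changed scaling, pseudocount, filter, restoration, model and left-out libraries.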

Additional observations from a re-analysis of the deposited data

How the results depend on the processing

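CD44, EPCAM and PROM1 kept their direction and their call in CR3 in all 207 values over 23 alternatives, and the 276 values of the 4 markers in comparisons without CR3 stayed uncalled. Many of these values could not differ in direction. Another filter, no mean-variance trend, 2 groups alone, a replicate block or leaving out a library outside the comparison keeps the fold change. Only the call was open to change there. CD44 ranged from -0.76 to -0.55, EPCAM from -0.28 to -0.14 and PROM1 from -0.41 to -0.23. ALCAM stayed lower in CR3 in all 69 values and lost its call in 15. These were library-size scaling (-0.11 against mCherry, -0.077 against scramble, -0.10 against reverse), no mean-variance trend (-0.20, -0.17 and -0.19, adjusted p = 0.051, 0.074 and 0.054), no filter (-0.17 against scramble, adjusted p = 0.050), a fit of the 2 groups alone (-0.20 against mCherry, adjusted p = 0.056) and left-out libraries, over which it ranged from -0.26 to -0.13 against mCherry, -0.18 to -0.15 against scramble and -0.22 to -0.15 against reverse. The cause was not tested. Called genes in reverse against mCherry numbered 97, but 146 with no filter, 23 with a mean of at least 50 reads and 58 with 2 groups alone. In reverse against scramble they numbered 67, but 102 with no filter and 20 with a mean of at least 50 reads. In scramble against mCherry they numbered 232, but 97 without the trend and 73 with 2 groups alone. Leaving out 1 library gave 96 to 604 in scramble against mCherry, highest without mCherry replicate 3, and 79 to 190 in reverse against mCherry, highest without the same library. With the replicate block, scramble against mCherry had 139 calls and no marker changed its call. Deviations of same-numbered libraries correlated at -0.13 to 0.07 over 18 pairs, and 1 of 12 libraries was closest to its own number, so the numbers were not taken as pairs. A difference under about 0.1 on the log2 scale lies within the markers' intervals at this depth and spread.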

Other observations

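In the colon differentiation list, 2 genes had reads in 1 group only, and not in CR3. Both were picked after their values were seen. SLC26A3, an intestinal chloride and bicarbonate exchanger, had no reads in the 9 CR3, scramble and reverse libraries and 39, 35 and 33 reads in the mCherry libraries. With a floor of 3 reads per library it was at least 12.2-fold lower in CR3 than in mCherry, where it averaged 35.1 ± 5.65 normalized reads. CA1, a carbonic anhydrase of colon epithelium, had 37, 39 and 32 reads in the scramble libraries and none in the 9 others, at least 11.3-fold higher in scramble than in mCherry. EPCAM, PROM1 and ALCAM overlapped between the scramble and mCherry libraries, and CD44 did not, with the share of all tested genes without overlap not counted.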
